A study of Homo sapiens with 4 samples.

Results

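The replication-dependent histone genes of the human histone clusters were examined in 2 mantle cell lymphoma cell lines after knockdown of the kinase BTK. The members are the gene symbols of the deposited expression table that begin with HIST, a cluster number from 1 to 4 and the letter H, and 72 of the 25277 symbols meet that rule. The letters after the cluster number give the class: 6 symbols belong to the linker histone H1, 17 to H2A, 20 to H2B, 14 to H3 and 15 to H4. Of these symbols 3 (HIST1H2APS1, HIST2H2BA and HIST2H2BC) are annotated as pseudogenes. Cluster 1 holds 56 of them, cluster 2 holds 12, cluster 3 holds 3 and cluster 4 holds 1.

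Mino and Z138 are established human lines of mantle cell lymphoma, a cancer of B cells. Both lines were made stable carriers of a tet-on vector, from which doxycycline switches on transcription, and all 4 cultures had doxycycline for 48 hours. One culture of each line carried a small hairpin against BTK (the Mino shBTK and Z138 shBTK libraries, here the hairpin libraries). The other carried the sc4 control vector; what that vector expressed, and whether each stable line was 1 clone or a pool, the sources used here do not say. There was 1 library per line and vector and 1 hairpin, so effects of BTK loss and other effects of that hairpin cannot be told apart. Levels are in FPKM (fragments scaled to transcript length and to mapped fragments), which corrects for transcript length and library size. Where a sentence gives a pair of values for a line, the control vector comes first and the hairpin second.

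Each nucleosome wraps DNA around a core built from H2A, H2B, H3 and H4, and H1 binds the DNA between cores. Dividing cells make most of these proteins from the clustered genes during S phase, when new DNA must be packaged, under the co-activator NPAT. The mRNAs of these genes typically have no intron and end in a short stem-loop in place of a poly(A) tail; the stem-loop is bound by SLBP, which acts in their processing, export, translation and decay. Replacement histones, by contrast, come from scattered genes with polyadenylated mRNAs made throughout the cell cycle. The sources used here do not say whether the libraries were made from polyadenylated RNA.

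The stem-loop is shown first because it is the feature that sets these mRNAs apart from nearly all others. A perfect 6-base stem around a 4-base loop was searched for in the whole GENCODE 29 transcripts of each symbol. The first strand of the stem had to begin with GG and end in 3 letters that are each C or T, and the loop had to begin with TT. In members 4 forms were found. Below they are written 5′ to 3′ as DNA letters, with the stem in capitals and the loop in lower case.
Form in 16 members of the H2A, H2B and H3 classes: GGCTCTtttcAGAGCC
Form in 5 members of the H2B and H3 classes: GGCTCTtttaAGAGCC
Form in 5 members, all H4: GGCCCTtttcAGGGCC
Form in 3 members, all H4: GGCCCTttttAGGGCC
The H4 forms thus differ in the stem from those of the other core classes. In all, 29 of 72 members held a form: 0 of 6 H1, 5 of 17 H2A, 11 of 20 H2B, 5 of 14 H3 and 8 of 15 H4 symbols. Among 19600 protein-coding symbols that are no member, 21 held such a match anywhere in a transcript, a share of 0.107% beside 40.3% of members. Within the last 300 bases of a transcript it stood in 16 members (22.2%) and in 3 of the others (0.0153%). Many of the transcript models of members end at the stop codon, so a member without a match may still have a stem-loop.

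The promoters were compared next, from RefSeq sequence (GRCh38.p14) upstream of the start sites; 64 of the 72 members had an entry. Motifs were searched on both strands of the 250 upstream bases: the CCAAT box (CCAAT), the TATA box (TATAAA), the octamer bound by OCT1 (ATTTGCAT) and the H1 box (AAACACA). None of these motifs contains another. The 150 bases upstream of 6 members that recur in the results are printed 5′ to 3′ on the strand of the gene, with every match in capitals, as its reverse complement where the motif lies on the other strand.
HIST1H1E, chr6:26156179-26156328, plus strand: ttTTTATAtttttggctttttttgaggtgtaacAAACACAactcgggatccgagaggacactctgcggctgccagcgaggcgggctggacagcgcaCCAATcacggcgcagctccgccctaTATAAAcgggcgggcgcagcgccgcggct
HIST1H1C, chr6:26056471-26056620, minus strand: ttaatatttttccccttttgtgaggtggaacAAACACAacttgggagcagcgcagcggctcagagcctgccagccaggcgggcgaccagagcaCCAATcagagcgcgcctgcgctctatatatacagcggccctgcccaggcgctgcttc
HIST1H3B, chr6:26032100-26032249, minus strand: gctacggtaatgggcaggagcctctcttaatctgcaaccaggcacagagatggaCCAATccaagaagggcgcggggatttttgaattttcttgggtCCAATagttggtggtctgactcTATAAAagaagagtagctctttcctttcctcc
HIST1H4H, chr6:26285535-26285684, minus strand: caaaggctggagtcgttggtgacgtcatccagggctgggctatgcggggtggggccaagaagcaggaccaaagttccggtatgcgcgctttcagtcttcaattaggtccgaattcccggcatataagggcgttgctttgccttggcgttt
HIST1H2BC, chr6:26123927-26124076, minus strand: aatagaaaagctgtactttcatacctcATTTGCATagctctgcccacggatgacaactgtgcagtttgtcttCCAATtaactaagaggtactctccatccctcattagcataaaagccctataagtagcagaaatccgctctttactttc
HIST1H2AC, chr6:26124022-26124171, plus strand: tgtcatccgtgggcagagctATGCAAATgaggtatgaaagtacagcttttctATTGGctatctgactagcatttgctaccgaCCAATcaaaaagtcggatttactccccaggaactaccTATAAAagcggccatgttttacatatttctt
The H1 box stood in all 6 H1 promoters and in 0 of the other members', against 4.95% of 27305 RefSeq promoters. The octamer stood in 11 of 15 H2A and 14 of 18 H2B promoters, in 1 of 12 H3 promoters and in 0 H1 or H4 promoters, against 1.66% of all promoters. The H3 promoter with it was that of HIST1H3D, whose entry is the same stretch as that of the H2A gene HIST1H2AD. The CCAAT box stood in every H1, H2A, H2B and H3 promoter with an entry but in 3 of 13 H4 promoters, against 33% of all promoters. A TATA box stood in 65.6% of members' promoters and in 11.1% of all. The stretch of HIST1H4H held none of the 4 motifs. HIST1H2BC and HIST1H2AC are transcribed away from each other from start sites 246 bases apart, so their printed stretches overlap and hold the same octamer, read from opposite strands. A match of letters is a description of the window and not evidence of binding.

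The libraries summed to between 669013 and 740192 FPKM, with 14953 to 16007 symbols above 0; read depth is unknown. The BTK level was 37.0 FPKM with the control vector and 9.84 with the hairpin in Mino, and 51 and 12.4 in Z138. B cell markers were present throughout (summed level of 6 genes 984 to 1334 FPKM), whereas 4 T cell genes summed to 0.161 to 4.65 FPKM, 4 myeloid genes to 0.107 to 0.473 and 3 stromal genes to 0.679 to 4.59. Of the mantle cell markers, SOX11 was at 19.8 to 23.6 FPKM in every library, but CCND1, which encodes cyclin D1, stood at 3.18 and 2.62 FPKM in Mino against 591 and 600.5 in Z138.

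Of the 72 members, 14 were listed at 0 in all 4 libraries, 12 at 0 in 1 to 3 libraries, and 3 were above 0 everywhere with a mean under 1 FPKM. The remaining 43 (4 H1, 9 H2A, 14 H2B, 8 H3 and 8 H4) entered the comparisons of ratios; 6 of these 43 had a control mean under 1 FPKM and so passed the filter through the hairpin libraries. An exact 0 in this table can be a failed estimate and does not show that a gene is silent. Reads from near-identical copies are one place where such estimates are uncertain. HIST2H2AA3, HIST2H3A and HIST2H3C, all at 0 in every library, share 100% of their 50-base words (every stretch of 50 bases in their transcripts) with another gene, and HIST2H4A and HIST2H4B, also at 0, share 97.5% and 97.2%. The other 9 at 0 in every library were HIST1H1A, HIST1H1T, HIST1H2AA, HIST1H2APS1, HIST1H2BA, HIST1H4G, HIST2H2BA, HIST3H2A and HIST3H2BB, among them the testis genes HIST1H2AA and HIST1H2BA. The 3 with a mean under 1 FPKM were HIST1H2AB (0.526 and 0.972 FPKM in Mino, 1.05 and 1.20 in Z138), HIST1H2BB (0.231 and 0.248, 1.13 and 1.53) and HIST2H2AB (0.280 and 0.305, 1.05 and 2.0). Among the 43, the median share was 0.421%, and HIST1H3D at 100%, HIST1H2AM at 86.3%, HIST1H2AJ at 83.7% and HIST1H2BK at 74.1% were the highest. Values of those 4 are therefore uncertain.

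Within Z138 the clustered histone genes were higher with the hairpin, whereas in Mino they lay on either side of the control. In Z138, 41 of 43 members were above the control on the log2(FPKM + 1) scale and 19 of 43 were at least 2-fold higher, where 0.269% of all 11150 tested symbols above 0 in every library were. Of those 19, 5 had entered through the hairpin libraries; among the 37 members whose controls alone averaged at least 1 FPKM, a filter added after seeing the data, 14 were 2-fold higher in Z138 (0.217% of all symbols under that filter) and the Z138 median was 0.85. No member was 2-fold lower in Z138 (0.126% of all symbols). In Mino, 1 of 43 was at least 2-fold higher (0.135% of all) and 0 were 2-fold lower (0.135% of all), with 19 above the control. Without the pseudocount the Mino counts were 9 higher and 3 lower. The median log2 ratio of members was 0.89 in Z138 and −0.08 in Mino, beside 0.03 and −0.01 over all symbols. As most members are low, the same share was taken among symbols with a mean of 1 to 5 FPKM: 16 of 27 members were 2-fold higher in Z138, against 0.65% of all symbols in that range. At 5 to 10 FPKM 2 of 9 members were (0.0899% of all symbols in that range), and at 10 FPKM or more 1 of 7 was (0.137%). There was 1 library on each side within a line, so these within-line values have no replicate and no test. In bulk RNA, a larger share of cells with a transcript and more transcript per cell cannot be told apart.

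**Figure D1:**
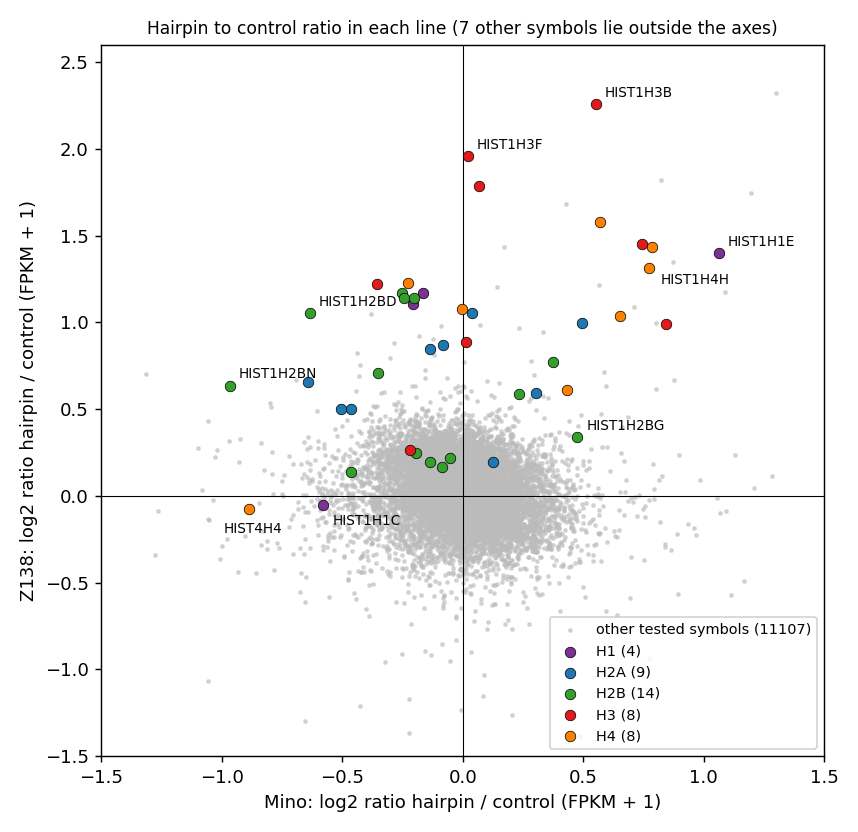
Log2 ratio of hairpin to control on the FPKM + 1 scale in Mino (horizontal) and in Z138 (vertical), for the 43 histone cluster symbols above 0 in every library, coloured by class, over 11107 other symbols in grey. Histone symbols spread to both sides of 0 in Mino, while 41 of 43 lie above 0 in Z138; each point compares 1 library with 1 library.

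Across both lines the test found 1 member higher with the hairpin and 0 lower (limma, adjusted over all 11484 tested symbols), where 0.0359% of symbols above 0 in every library passed as higher and 0.0179% as lower. At an unadjusted p under 0.05 in limma, 17 of 43 members were higher and 1 was lower. Over all symbols the higher share was 0.870% and the lower share 1.39%. Among the 37 members whose controls averaged at least 1 FPKM, 13 were higher and 1 was lower. Under that filter the shares of all symbols were 0.776% and 1.40%. The test leaves 1 residual degree of freedom per gene and treats the 2 lines as the replicates. The spread of each gene is drawn toward a trend fitted over all tested symbols. Its p-values and SEs thus rest on how alike the lines were for the gene and for other symbols, and not on the spread between cultures. The calls depend on those other symbols: without symbols listed at 0, 9 members were higher. By sign, 22 of 43 members were below the control in Mino and above it in Z138 (32.8% of all symbols were), 19 were above in both (23.5% of all) and 2 (HIST1H1C and HIST4H4) were below in both. Spearman's rho between Mino and Z138 ratios was 0.40 over the 43 members, beside −0.17 over all 11150 symbols. These rho values describe points that share 4 libraries and, among members, partly shared sequence.

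Linker histone H1 binds at the entry and exit of the nucleosome, and its subtypes differed widely in level. HIST1H1C, which encodes H1.2, dominated the class at 127 FPKM in the Mino control, 84.7 with the hairpin in Mino, 121 in the Z138 control and 117 with the hairpin in Z138. It was lower with the hairpin in Mino (log2 ratio −0.58) and nearly level in Z138 (−0.05), and it did not pass the test (mean −0.32, SE 0.15, adjusted p = 1.00 in limma). HIST1H1E, which encodes H1.4, was the member that passed: its level was 0.913 FPKM without and 2.99 with the hairpin in Mino, and 1.51 and 5.61 in Z138. Both hairpin libraries thus stood above both controls, and the rise averaged 1.23 on the log2 scale (SE 0.15, limma adjusted p = 0.0364, higher in 2 of 2 lines). The call was lost without the filter on low values, without the line block and with GC and length trends removed. HIST1H1B, which encodes H1.5, was at 0.456 and 0.299 FPKM in Mino, 1.76 and 5.21 in Z138, so only the Z138 pair separated upward (log2 ratio 1.17). HIST1H1D, which encodes H1.3, was at 0.636 and 0.418 FPKM in Mino, 1.26 and 3.86 in Z138. The H1 class therefore had 3 of 4 tested genes 2-fold higher in Z138 while its most abundant gene was not, with a class median of 1.14 there. The testis subtype HIST1H1T and the gene HIST1H1A were listed at 0 in all 4 libraries.

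H2A and H2B form a dimer, and their genes often lie side by side and share a promoter region. All 9 tested H2A genes were above the control in Z138 (median log2 ratio 0.66, 1 of 9 at least 2-fold) and 4 of 9 in Mino (median −0.08). HIST1H2AC, the most abundant, was at 17.3 FPKM in the Mino control, 12.3 in Mino with the hairpin, 7.17 in the Z138 control and 10.6 in Z138 with the hairpin. The log2 ratios had opposite signs, −0.46 in Mino and 0.50 in Z138, with a mean of 0.02 (SE 0.22), and the lines lay closer with the hairpin: Z138 minus Mino was −1.17 in the controls and −0.20 with it. HIST1H2AE, at 3.21 and 3.6 FPKM in Mino, 11.7 and 13.6 in Z138, differed little with the hairpin in either line. HIST1H2AJ was the H2A gene at least 2-fold higher, from 2.44 to 6.15 FPKM in Z138, with 0.270 and 0.306 in Mino. HIST1H2AH was above the control in both lines, at 0.677 and 1.37 FPKM in Mino, 1.80 and 4.58 in Z138 (mean 0.75, SE 0.16, adjusted p = 0.589 in limma). HIST1H2AK was at 3.34 and 2.95 FPKM in Mino, 0.580 and 1.84 in Z138. HIST1H2AL was at 1.05 and 0.314 FPKM in Mino, 3.23 and 5.67 in Z138, below its control in one line and above it in the other. The remaining 2 H2A genes of cluster 1 were HIST1H2AG, at 4.53 and 4.22 FPKM in Mino, 5.51 and 10.9 in Z138, and HIST1H2AM, at 1.11 and 1.61 in Mino, 3.94 and 6.45 in Z138.

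All 14 tested H2B genes were likewise above the control in Z138 (median 0.61, 4 of 14 at least 2-fold), against 3 of 14 in Mino (median −0.20). HIST1H2BK was the most abundant member of all, at 161 FPKM in the Mino control, 140.1 with the hairpin there, 78 in the Z138 control and 92.7 with the hairpin. Its transcript shares 61.4% of its 50-base words with H2BFS, and reads from stretches that match cannot be told apart. HIST1H2BD was at 16.9 and 10.5 FPKM in Mino, 7.52 and 16.7 in Z138. The Mino control and the Z138 hairpin library were thus nearly equal for HIST1H2BD, and its log2 ratios were −0.64 and 1.06. HIST1H2BN had the lowest Mino ratio of the 43, −0.97, from 12.1 to 5.69 FPKM, while in Z138 it was at 3.54 and 6.06. HIST1H2BG was at 1.62 and 2.65 FPKM in Mino, 10.2 and 13.2 in Z138, one of 3 H2B genes above the control in both lines. The others were HIST1H2BM, at 0.202 and 0.415 FPKM in Mino, 1.65 and 2.98 in Z138, and HIST2H2BF, at 0.773 and 1.30 in Mino, 2.75 and 5.4 in Z138. HIST1H2BJ, at 21.0 and 19.0 FPKM in Mino, 4.26 and 5.02 in Z138, stayed near its control in both. Another 3 had Z138 ratios of 1.14 to 1.17 and negative Mino ratios: HIST1H2BF, HIST1H2BI and HIST1H2BO. HIST1H2BC was at 8.22 and 6.23 FPKM in Mino, 3.36 and 6.11 in Z138.

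H3 and H4 form the tetramer at the centre of the nucleosome, and the largest single ratio in Z138 belonged to an H3 gene. All 8 tested H3 genes were above the control in Z138 (median log2 ratio 1.34, 5 of 8 at least 2-fold) and 6 of 8 in Mino (median 0.04). Without HIST1H3I and HIST1H3J, which entered through the hairpin libraries, the Z138 median was 1.11 with 3 of 6 at least 2-fold higher. HIST1H3B was at 3.05 FPKM in the Mino control, 4.93 with the hairpin in Mino, 3.40 in the Z138 control and 20.0 with the hairpin in Z138. One library, Z138 with the hairpin, thus stood far above the other 3, and the ratio of 2.26 there was the largest of the members. Averaged over the lines it was 1.40 (SE 0.33, limma adjusted p = 0.729). HIST1H3F was at 1.91 and 1.95 FPKM in Mino, 0.595 and 5.2 in Z138, flat in one line and 1.96 on the log2 scale in the other. HIST1H3J had the same shape, at 0.530 and 0.602 FPKM in Mino, 0.723 and 4.94 in Z138. HIST1H3C and HIST1H3I were above the control in both lines: HIST1H3C at 0.875 and 2.37 FPKM in Mino, 4.81 and 10.6 in Z138. HIST1H3I was at 0.583 and 1.65 FPKM in Mino, 1.17 and 4.93 in Z138. Their means were 0.92 (SE 0.14, limma adjusted p = 0.118) and 1.1 (SE 0.19, limma adjusted p = 0.184), so neither passed. HIST1H3H was lower with the hairpin in Mino (2.05 and 1.38 FPKM) and higher in Z138 (4.50 and 11.8). HIST1H3D, whose transcripts are wholly shared with an overlapping gene model, was at 3.04 and 2.47 FPKM in Mino, 1.14 and 1.57 in Z138. HIST1H3G was at 2.27 and 2.31 FPKM in Mino, 3.16 and 6.70 in Z138, level in one line and 0.89 on the log2 scale in the other.

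Among the 8 tested H4 genes, 7 were above the control in Z138 (median 1.15, 6 of 8 at least 2-fold) and 5 in Mino (median 0.50). HIST1H4H was at 2.22 and 4.52 FPKM in Mino, 3.86 and 11.1 in Z138, higher with the hairpin in both lines (mean 1.04, SE 0.17, adjusted p = 0.145 in limma). HIST1H4B was at 0.758 and 2.03 FPKM in Mino, 1.72 and 6.34 in Z138 (mean 1.11, SE 0.18, adjusted p = 0.145). For both genes each hairpin library stood above its own control. HIST1H4D was at 0.283 and 0.904 FPKM in Mino, 0.819 and 4.42 in Z138 (log2 ratios 0.57 and 1.58). HIST1H4F was level in Mino (0.561 and 0.559 FPKM) and higher in Z138 (2.29 and 5.95). HIST1H4I was at 5.52 and 4.58 FPKM in Mino, 2.31 and 6.76 in Z138. HIST1H4C, at 1.14 and 2.37 FPKM in Mino, 3.21 and 7.62 in Z138, and HIST1H4E, at 2.71 and 4.02 in Mino, 4.11 and 6.82 in Z138, were above the control in both lines. HIST4H4, the gene of cluster 4, was the exception, below its control in Mino (1.64 and 0.426 FPKM) and nearly level in Z138 (1.89 and 1.74), with a mean of −0.48 (SE 0.20, unadjusted p = 0.0413, adjusted p = 1.00). Taken as pairs of partners, the 16 tested H3 and H4 genes had medians of 0.25 for Mino and 1.22 for Z138 with 11 at least 2-fold higher in Z138, and the 23 H2A and H2B genes had −0.14 and 0.64 with 5. By the filter on the controls alone, 8 of 13 H3 and H4 genes were 2-fold higher in Z138 (median 1.08), 4 of 21 H2A and H2B genes (0.64) and 2 of 3 H1 genes (1.17). The difference between these groups of genes was not tested.

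**Figure D2:**
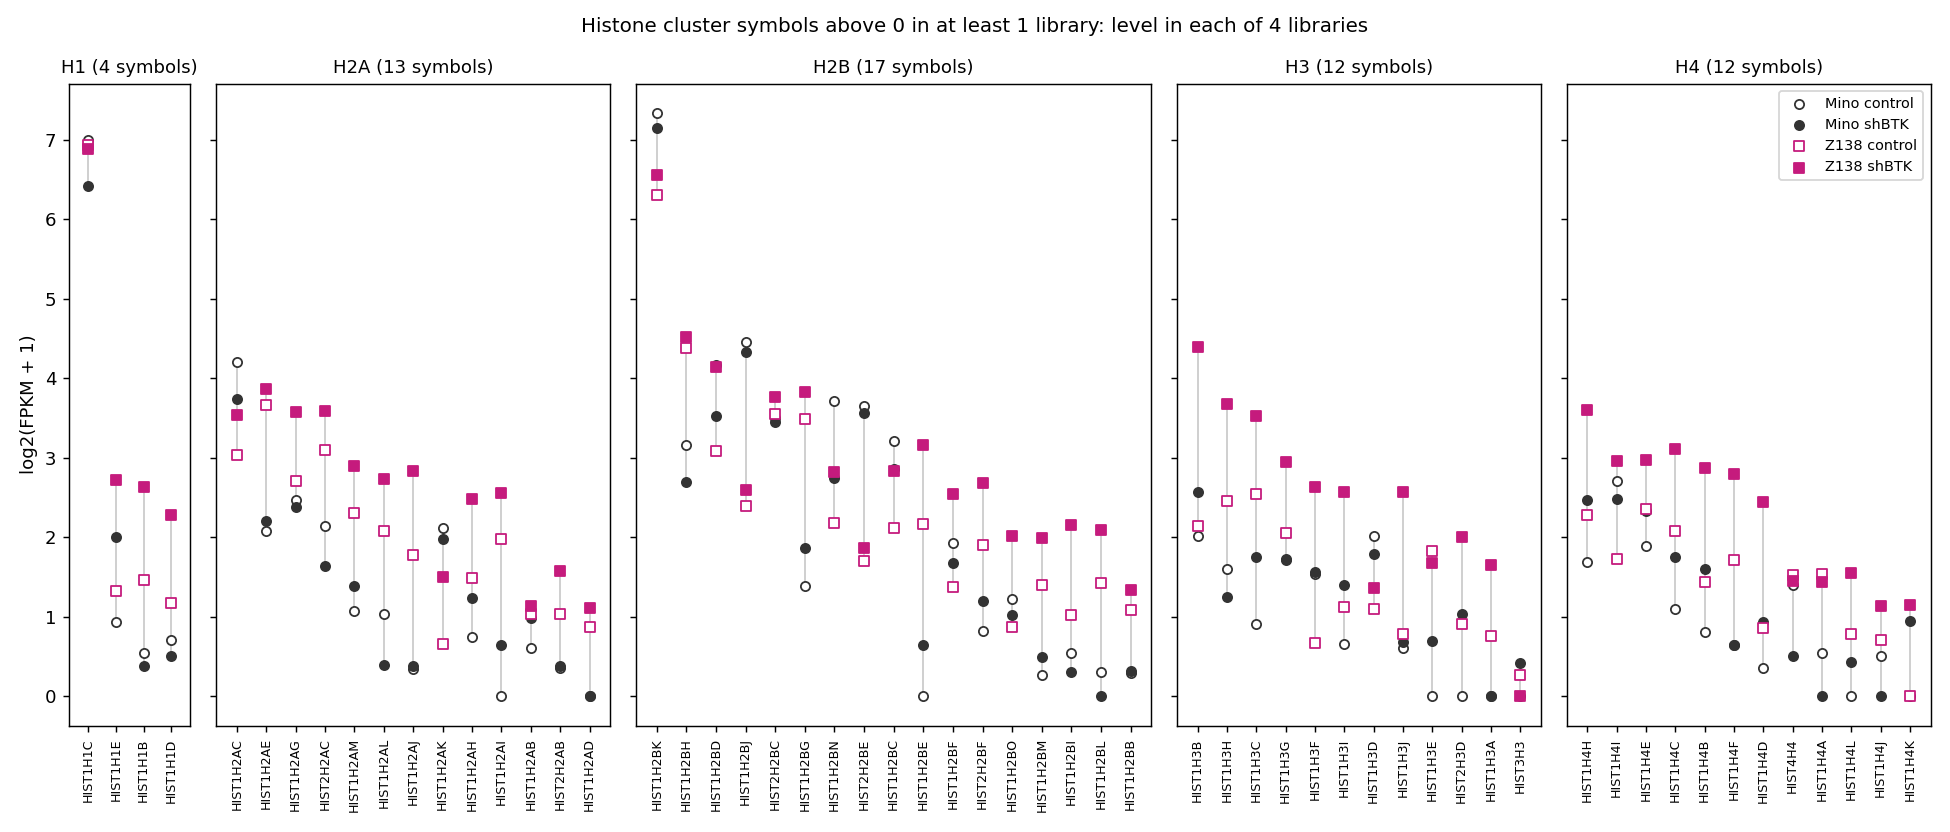
Level of each histone cluster symbol above 0 in at least 1 library, as log2(FPKM + 1), in the 4 libraries (open markers control, filled markers hairpin; circles Mino, squares Z138), by class and in order of mean level. HIST1H1C and HIST1H2BK stand above all others, and the filled squares (Z138 hairpin) are the highest marker for most H3 and H4 symbols.

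Summed over all 72 members with zeros included, the level was 451 FPKM in the Mino control, 376 with the hairpin in Mino, 377 in the Z138 control and 551 with the hairpin in Z138. These sums are 0.0674%, 0.0562%, 0.0509% and 0.0773% of the summed FPKM of the libraries. The ratio of hairpin to control was 0.833 in Mino and 1.46 in Z138. By class the ratios in Z138 were 1.05 for H1, 1.61 for H2A, 1.36 for H2B, 3.07 for H3 and 2.42 for H4. In Mino they were 0.685 for H1, 0.856 for H2A, 0.845 for H2B, 1.38 for H3 and 1.32 for H4. The sums of H3 and H4 were thus above the control in both lines, and those of H1, H2A and H2B below it in Mino. The sums turn on a few genes: HIST1H1C and HIST1H2BK together made up 63.8% of the members' sum in the Mino control, 59.8% with the hairpin there, 52.9% in the Z138 control and 38.1% with the hairpin. Without the 10 most abundant members, the remaining 62 had ratios of 1.01 in Mino and 2.22 in Z138. Without HIST1H1C, the H1 sum had ratios of 1.85 and 3.24, so the H1 sum in Mino changes side with that gene.

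**Figure D3:**
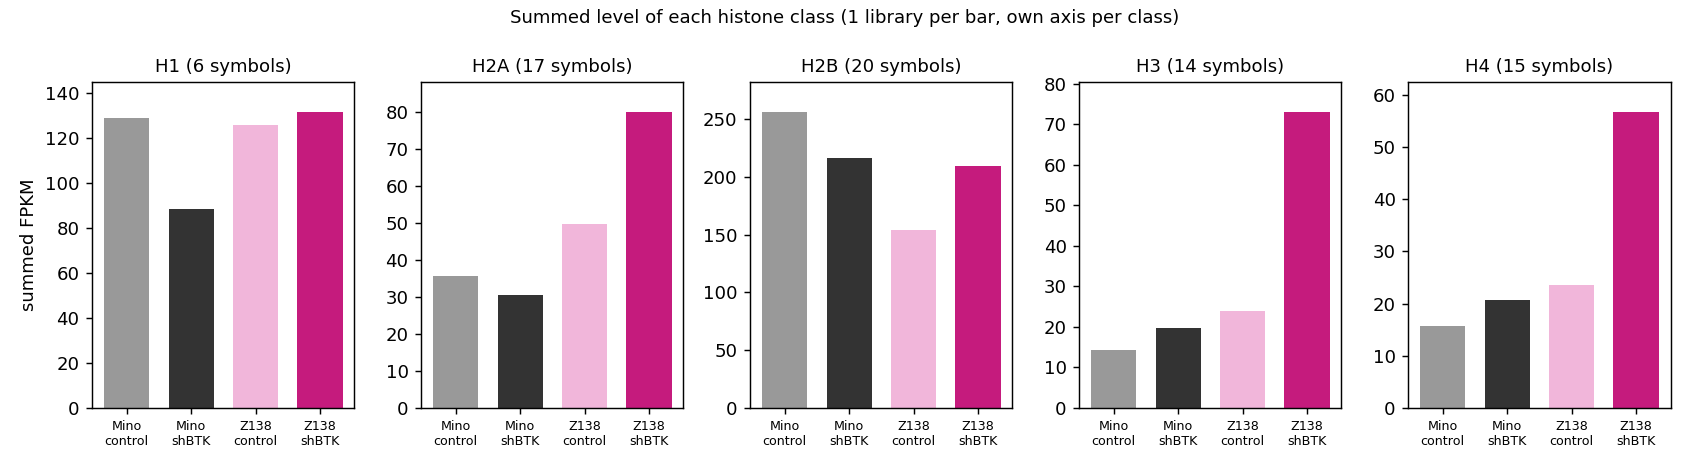
Summed FPKM of all symbols of each class (zeros included) in the 4 libraries, with 1 library per bar, no error and a separate axis from 0 for each class. In Z138 the H3 sum goes from 23.8 to 73.1 FPKM and the H4 sum from 23.5 to 56.8, while the H1 sum in Mino goes from 129 to 88.4.

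The clusters differed in how many genes could be compared. Cluster 1, on chromosome 6, supplied 38 of the 43 tested members, with medians of −0.04 for Mino and 1.02 for Z138 and 19 of 38 at least 2-fold higher in Z138. Cluster 2, on chromosome 1, supplied 4, of which 0 were 2-fold higher in Z138, with medians of −0.07 and 0.36. Those 4 were HIST2H2AC (−0.51 for Mino and 0.50 for Z138), HIST2H2BC (−0.05 and 0.22), HIST2H2BE (−0.08 and 0.16) and HIST2H2BF (0.38 and 0.77). All 4 are H2A or H2B genes, and the H2A and H2B genes of cluster 1 had Z138 medians of 0.75 (8 genes) and 0.64 (11 genes), beside 0.50 for the H2A gene and 0.22 for the 3 H2B genes of cluster 2. With so few cluster 2 genes the difference between clusters was not tested. The sums over whole clusters had nearly the same Z138 ratio, 1.47 in cluster 1 and 1.46 in cluster 2.

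Averaged over the control and hairpin libraries, the lines differed in the levels of histone genes. In the same fit 28 of 43 members were higher in Z138 than in Mino, where 28.7% of all symbols passed as higher, and 6 were lower, where 37.9% passed as lower. The filter on the mean of all 4 libraries let members under 1 FPKM in both Mino libraries pass only with higher Z138 levels. HIST1H1B, HIST1H2AJ and HIST1H4F are among them, so the filter favoured their higher call. Among the 37 members whose controls averaged at least 1 FPKM, 22 were higher and 6 lower. Under that filter 3178 and 4210 of all 11085 symbols were, and it holds the same link to the Z138 control. The median log2 difference (Z138 minus Mino) was 0.86, against −0.11 over all symbols. Each difference averages both vectors, so a change with the hairpin in 1 line enters it. HIST1H3B and HIST1H3J were called higher, with 0.12 and 0.17 in the controls, 1.83 and 1.89 with the hairpin. HIST1H2BN (−1.53 and 0.08), HIST1H2BC (−1.08 and −0.02) and HIST1H2BD (−1.07 and 0.62) were not called lower. The summed level of all 72 members in the Z138 control was 0.835 of that in the Mino control. HIST1H2BG had the largest difference in the fit, 2.03 (SE 0.14, adjusted p = 6.65e-06 in limma), with both Z138 libraries well above both Mino libraries. HIST1H2AJ (1.94), HIST1H3C (1.71), HIST1H3H (1.64), HIST1H2AE (1.63), HIST1H4F (1.62) and HIST1H1B (1.59) were also higher in Z138. On the other side, HIST1H2BJ was lower in Z138 by −1.90 (SE 0.14, adjusted p = 1.18e-05) and HIST2H2BE by −1.82 (SE 0.14, adjusted p = 1.42e-05). HIST2H2BE was at 11.5 and 10.8 FPKM in Mino, 2.26 and 2.65 in Z138, and its groups do not overlap. HIST1H2AK (−0.97), HIST1H2BK (−0.81), HIST1H2AC (−0.68) and HIST1H3D (−0.68) were the other 4 lower genes. The 6 lower genes are 3 H2B, 2 H2A and 1 H3 gene, and the H2B class, with 5 higher and 3 lower of 14, was the most divided. HIST1H2BG and HIST1H2BJ, which encode near-identical proteins, thus stood at opposite ends. The linker gene HIST1H1C did not differ past the threshold (0.20, SE 0.15, adjusted p = 0.269).

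A further 11 members were at 0 in some libraries and at 1 FPKM or more in another, and their values are given without ratios. HIST1H2BE was listed at 0 in the Mino control, 0.561 FPKM with the hairpin there, 3.49 in the Z138 control and 7.96 with the hairpin. HIST1H2AI was listed at 0, 0.563, 2.95 and 4.89 FPKM in the same order, and HIST1H2BL at 0.234, 0, 1.69 and 3.25. In all 3 the Z138 libraries held the higher values. HIST1H3A was listed at 0 in both Mino libraries and at 0.695 and 2.15 FPKM in Z138, and HIST1H2AD at 0 in both and at 0.830 and 1.16. HIST2H3D was listed at 0 in the Mino control, 1.05 with the hairpin there, 0.881 in the Z138 control and 3.0 with the hairpin. HIST1H4L followed with 0, 0.353, 0.719 and 1.92 FPKM. HIST1H3E (0, 0.623, 2.56 and 2.19 FPKM) and HIST1H4A (0.464, 0, 1.89 and 1.70) were the 2 of these 11 that were lower with the hairpin in Z138. Of the others, HIST1H2AD, HIST1H3A, HIST1H4J, HIST1H4K and HIST1H4L reached 1 FPKM only in the Z138 hairpin library. The rule of 1 FPKM thus fixed their direction in Z138. HIST1H4J was listed at 0.426, 0, 0.633 and 1.20 FPKM. HIST1H4K, which shares all its 50-base words with HIST1H4J, was listed at 0 without the hairpin in both lines, at 0.934 FPKM with it in Mino and at 1.21 with it in Z138. HIST3H3, the testis H3 gene, stayed under 1 FPKM, at 0.343 with the hairpin in Mino, 0.207 in the Z138 control and 0 in the other 2 libraries.

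The ratio in Z138 was then set against the level in the other line, which shares no library with it. The 2 are still linked by the filter on the mean of all 4 libraries. A member under 1 FPKM in both Mino libraries passed only with higher Z138 levels. How far that filter shapes the relation was not tested. Members with a low level in the Mino control had the higher Z138 ratios (Spearman rho −0.52 over 43 members, −0.17 over all symbols). The reverse relation, Mino ratio against Z138 control level, had a rho of −0.20 over members. By level, the 32 members under a Mino mean of 5 FPKM had a Z138 median of 1.04 with 17 at least 2-fold higher. Of all symbols at that level 0.688% were, with a median of 0.06. The 11 members at or above 5 FPKM had a median of 0.25 with 2 at least 2-fold higher. Of all symbols at that level 0.111% were, with a median of 0.02. All 11 of these members were below the control in Mino, where 46.6% of all symbols at that level were above it. GC content moved with the Z138 ratio over all symbols (rho −0.57 over 10477), and members are richer in GC than other symbols (median 55.4% against 48.6%). Among members that rho was 0.23, and with the GC and length trends removed the members' Z138 median was 0.85. The part of GC content in the members' ratios was not tested.

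**Figure D4:**
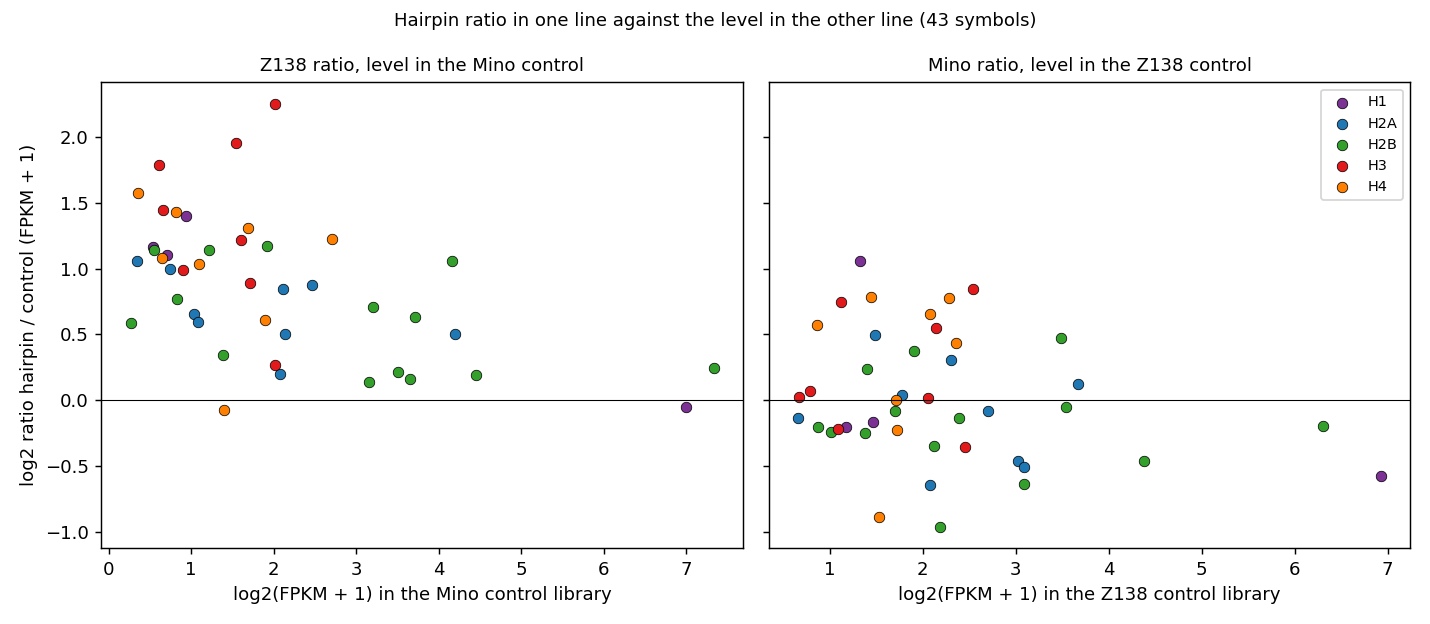
Log2 hairpin ratio of the 43 members in one line against their log2(FPKM + 1) level in the control library of the other line, coloured by class. The Z138 ratio (left) is higher among members with a low Mino level (rho −0.52), and the Mino ratio (right) shows a weaker trend (rho −0.20). The filter on the mean of all 4 libraries links level and ratio.

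Neighbouring genes that share a promoter region were compared next. Pairs were searched only among the 64 members with a promoter entry, with start sites at most 1000 bases apart. Members without an entry, among them HIST1H2AH, HIST1H3I, HIST1H3J and HIST1H4C, could not form a pair. Within these limits 13 pairs were transcribed away from each other with start sites 194 to 979 bases apart, and both partners were tested in 9. HIST1H2AD and HIST1H3D have the same start site in RefSeq, so each forms a pair with HIST1H2BF. Of these only the pair with HIST1H3D is among the 9. In Mino 7 of the 9 pairs had ratios of the same sign. The partners differed by a median of 0.35 in Mino and 0.47 in Z138 on the log2 scale. HIST1H2BC and HIST1H2AC, whose shared upstream sequence is printed above, had ratios of −0.35 and −0.46 in Mino, 0.71 and 0.50 in Z138. HIST1H2BG and HIST1H2AE, both higher in Z138 than in Mino, had 0.48 and 0.13 in Mino, 0.34 and 0.20 in Z138. The widest gap in Z138 was between HIST1H3F and HIST1H2BH, whose start sites are 979 bases apart: HIST1H3F had 1.96 in Z138 and HIST1H2BH 0.14. HIST1H2BH was at 7.94 and 5.47 FPKM in Mino, 19.8 and 21.9 in Z138. HIST1H2BJ and HIST1H2AG show that partners can differ in level between lines too. Averaged over both vectors, HIST1H2BJ was lower in Z138 (−1.90) and HIST1H2AG higher (0.71). In the controls alone they were at −2.06 and 0.24.

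The form of the 3′ end was available for some members. The 13 tested members whose transcript models run over 200 bases past the stem-loop had medians of −0.23 for Mino and 0.64 for Z138, with 4 at least 2-fold higher in Z138. The 4 with a shorter tail had −0.11 and 0.88, and the 26 with no stem-loop in their models had −0.03 and 1.02 with 13 at least 2-fold higher. A longer model can be a polyadenylated form, but which form these libraries read cannot be seen from gene-level FPKM.

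No gene of the machinery that makes and processes histone mRNA passed the test. Of all symbols 0.0359% passed as higher and 0.0179% as lower. At an unadjusted p under 0.05 in limma these shares were 0.870% and 1.39%. Lists of this size with 0 called, here and among the replacement histones below, are therefore near the share of all symbols. Of 39 genes of histone mRNA transcription and processing, 0 were called in limma in either direction, also at an unadjusted p under 0.05, and their median ratios were −0.05 in Mino and 0.07 in Z138. SLBP was at 74.8 and 70.7 FPKM in Mino, 65.9 and 68.9 in Z138, and NPAT at 5.76 and 5.28 in Mino, 1.58 and 1.87 in Z138. The replication factor list (35 genes such as the helicase subunits and the primase gene PRIM1) had medians of 0.00 and −0.04 with 0 called, and 0 at an unadjusted p under 0.05. Histone chaperones (19 tested genes, among them ASF1A and HIRA, which hand H3 and H4 on to DNA) had −0.05 and 0.03, with 0 called at either threshold. Mitotic genes (18, such as MKI67 and AURKA) had −0.15 in Mino, where 3 of 18 were above the control, and 0.15 in Z138, where 13 of 18 were, with 0 called at either threshold. The proliferation marker MKI67 was at 27.0 and 19.3 FPKM in Mino, 16.3 and 18.9 in Z138.

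The 10 tested polyadenylated replacement histones had medians of 0.00 for Mino and −0.04 for Z138, with 0 called at either threshold. H1FX was at 277 and 268 FPKM in Mino, 256 and 228 in Z138, and H2AFV at 217 and 186 in Mino, 120.4 and 129 in Z138. Both stood above every clustered gene of their class in each library. H3F3A, an H3.3 gene, was listed at 0.0118 and 7.61 FPKM in Mino, 6.37 and 0.0200 in Z138, a swing in opposite directions in the 2 lines. Its mean log2 ratio was 0.12 (SE 1.07). Whether its values near 0 are failed estimates was not tested. H1F0, a linker gene, stood at 44.1 and 30.8 FPKM in Mino, 0.0112 and 0.0228 in Z138.

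Among other RNAs without a poly(A) tail, 2 passed the test as higher with the hairpin. Of 22 such symbols 9 were at 0 in all libraries and 9 were tested, with medians of 0.80 in Mino and 0.69 in Z138 and 2 called higher in limma. At an unadjusted p under 0.05, 6 of 9 were higher and 0 lower, and in Z138 4 of 9 (44.4%) were at least 2-fold higher, beside 44.2% of the tested members. The 2 called higher were RMRP and RPPH1. RMRP, the RNA of RNase MRP, was at 143 and 329 FPKM in Mino, 55.5 and 189 in Z138. RPPH1, the RNA of RNase P, was at 46.6 and 116 FPKM in Mino, 13.5 and 71.4 in Z138. SCARNA17, a guide RNA of the Cajal body, was at 9.96 and 10.6 FPKM in Mino, 5.19 and 1.78 in Z138. How far the recovery of RNA without a poly(A) tail differed between libraries, and its part in the members' ratios, was not tested.

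**Figure D5:**
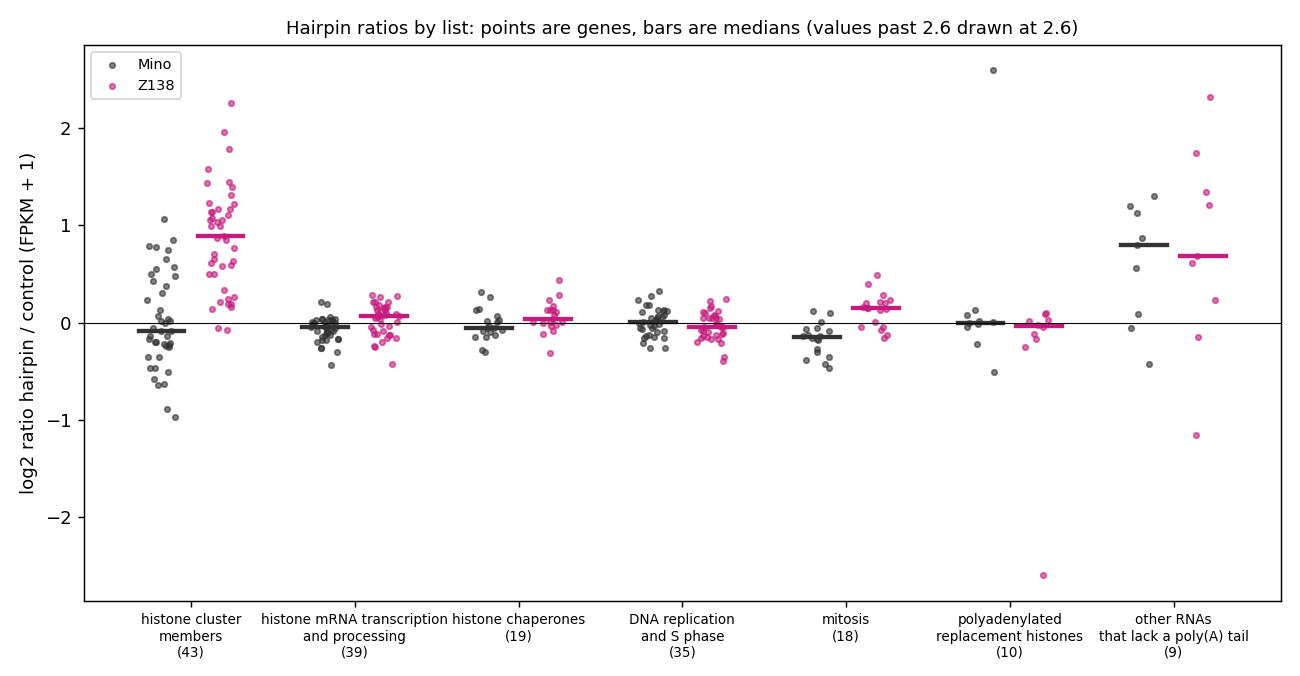
Log2 hairpin ratios of the tested members and of 6 related lists in Mino (grey) and Z138 (magenta), with 1 point per gene and bars at the medians. The members' Z138 median (0.89) lies above those of the processing, chaperone, S phase, mitosis and replacement histone lists, which lie between −0.04 and 0.15, and the list of other RNAs without a poly(A) tail has 0.69.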

How the data were processed

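RNA was sequenced from 4 cultures, 1 per line and vector. RNA was extracted with an RNeasy Plus kit and made into libraries with the TruSeq RNA kit of Illumina, per the labels' protocols. The authors deposited FPKM values for 25277 symbols, per the file headers. TopHat and hg19 are named in the submitters' processing notes; the sources used here do not say which program, annotation and filters gave the FPKM values. Depth is unknown, so no counting interval is given.

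Values were tested as log2(FPKM + 1), which understates changes of low genes, with limma 3.58.1 in R 4.3.3 (line and hairpin as terms, mean-variance trend) on 11484 symbols whose mean reached 1 FPKM, at a Benjamini-Hochberg adjusted p of 0.05. The fit was also run on data simulated from its own model and spread, for symbols above 0 in every library. Such a run cannot show how well its p-values hold with 1 library per line and vector. Shares of all symbols were taken over the 11150 of these above 0 in every library. Within a line, ratios were described by a 2-fold rule. Members at 0 in any library are given as values only.

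The members, lists and tests were chosen with earlier results of these data known. Named genes were those passing the test and, in each class, the 2 most abundant, the 2 with the largest mean ratio of 1 sign, the extreme differences between lines in each direction, and the 5 members whose ratios differed most between lines; of other lists, those passing and the 3 with the largest mean ratio. Other genes were named after their values were seen, among them HIST1H1D, HIST1H2AG, HIST1H2AL, HIST1H2AM, HIST1H2BC, HIST1H2BF, HIST1H2BI, HIST1H2BO, HIST1H3G, HIST1H4C, HIST1H4E, HIST2H2AC, HIST2H2BC, HIST2H2BE, HIST4H4 and H3F3A. Transcripts came from GENCODE 29 and promoters from RefSeq, matched by symbol (72 of 72 genes found). Alternatives changed the pseudocount, filter, scaling, trend and block.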

Additional observations from a re-analysis of the deposited data

Results flagged for a closer look

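In 3 histone genes the hairpin ratios of the 2 lines lay on opposite sides of 0 by at least 1.5-fold each. The log2 ratio of HIST1H2AL was −0.644 in Mino, against 0.657 in Z138. HIST1H2BD had −0.636 and 1.055, and HIST1H2BN −0.966 and 0.636. Each value compares 1 library with 1 library, and no test was made of the difference between lines. HIST1H2BN and its divergent partner HIST1H2AK (−0.14 and 0.85) had the same signs. For HIST1H2BD and HIST1H2AL no divergent partner was found among the members with a promoter entry.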

How the results depend on the processing

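The count of members higher across both lines (1) was 0 with no filter on low values, 0 at a mean of at least 5 FPKM, 0 with GC and length trends removed and 0 without the line block, and it was 9 without symbols listed at 0, 5 after rescaling by the median ratio and 2 after rescaling without ribosomal protein genes. HIST1H1E is under 5 FPKM; in the other settings of that list its ratio was 1.21 to 1.26. The 9 were HIST1H1E, HIST1H2AH, HIST1H3B, HIST1H3C, HIST1H3I, HIST1H4B, HIST1H4C, HIST1H4D and HIST1H4H. At a mean of at least 5 FPKM, 7 members were higher in Z138 than in Mino (28 as reported), 3 were 2-fold higher with the hairpin in Z138 (19 as reported) and 0 in Mino (1 as reported), and the Z138 medians were 0.42 for all members (0.89 as reported) and -0.051 for H1, where HIST1H1C alone is left. With a pseudocount of 0.1, of 0.5 and with none (the last added after seeing the data), 5, 3 and 9 members were 2-fold higher and 3, 2 and 3 were 2-fold lower in Mino, and the Z138 median was 1.12 at 0.1 and 1.13 with none. The mean ratio of HIST1H2AC became -0.025 with GC and length trends removed, and the difference between lines of HIST1H3F became -0.080 at a pseudocount of 0.1. The cause of these moves was not tested. The count of members lower across both lines stayed at 0 in every setting run. Rescaling by the median ratio moved the median of all symbols between lines from −0.12 to −0.01. The labels give no replicate numbers; the reported fit pairs each hairpin library with the control of its own line, and its value without that line block is above. Leaving out a library leaves no residual degree of freedom and was not run.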
